A study of Homo sapiens with 6 samples.

Results

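The 8 genes RIN2, ABAT, ANXA4, CALD1, PTPRN2, TMEM255A, HEPACAM2 and PCDH19 were chosen because they were strongly raised in KARPAS-422 cells after EZH2 knockdown, and they are 8 of 13036 genes tested. Their members on the array are all probe sets annotated to 1 gene symbol only, which gave 24 probe sets of 41091. KARPAS-422 and Pfeiffer are established human lymphoma lines, labelled DLBCL, which are grown from tumours of mature B cells and are known to carry EZH2 mutations that alter its activity. In each line one arm carried shEZH2, a single short hairpin RNA against EZH2, and the other carried shNTC, a single hairpin against a non-mammalian sequence. Both arms received lentivirus with polybrene at 8 µg/ml and then puromycin at 1 µg/ml for 2 days, so the controls are infected and selected cells too, and the labels give 10 days of knockdown. KARPAS-422 had 2 shEZH2 and 2 shNTC arrays, labelled as biological replicates, and Pfeiffer had 1 shEZH2 and 1 shNTC array. With 1 hairpin per arm, an effect of that hairpin on other transcripts was not tested. All levels below are log2 MAS5 signals, where MAS5 is Affymetrix's summary of the probes of a probe set on a single array. All differences are shEZH2 minus shNTC on that log2 scale. Levels of different probe sets were not compared with each other, because each probe set has its own brightness.

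EZH2 is the enzyme of the Polycomb complex PRC2 and methylates a lysine of histone H3. That mark sits on the promoters of many developmental and tissue-specific genes that a cell lineage keeps silent. In germinal centre B cells, the normal counterpart of many of these lymphomas, EZH2 is abundant. The 8 genes are best known outside B cells. RIN2 activates the endosomal GTPase RAB5, ABAT breaks down the neurotransmitter GABA in mitochondria, and PTPRN2 is a phosphatase-like membrane protein of dense-core secretory vesicles. ANXA4 is a calcium-dependent phospholipid-binding annexin, and CALD1 (caldesmon) binds actin and calmodulin and restrains actomyosin. PCDH19 is a protocadherin of the developing brain, HEPACAM2 is an immunoglobulin-fold protein also called MIKI, and TMEM255A is a transmembrane protein.

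The knockdown was seen in the target gene itself. The hairpins are printed 5′ to 3′ because they define the arms. Capitals mark the sense strand of the stem, 21 bases long, which in shEZH2 is the sequence aimed at the EZH2 transcript.
shEZH2: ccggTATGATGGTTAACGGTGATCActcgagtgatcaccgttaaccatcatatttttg
shControl: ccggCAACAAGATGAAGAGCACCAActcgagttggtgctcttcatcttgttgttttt
EZH2 lies on chromosome 7 at 148807383 to 148884291 (GRCh38.p14) and was read by 1 probe set. Its level was 10.52 and 10.55 on the KARPAS-422 shEZH2 arrays, against 11.71 and 11.57 on the shNTC arrays. The difference was -1.11 (SE 0.10, n = 2 per arm, limma adjusted p = 7.73e-04), which left 46.3% of the control signal. In Pfeiffer EZH2 read 10.23 with shEZH2 and 11.65 with shNTC, which left 37.6%, with no replicate. The knockdown was therefore partial on every shEZH2 array.

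Each array had been scaled to the same trimmed mean before deposit. Arrays of the same KARPAS-422 arm correlated at r = 0.982 (shEZH2) and 0.978 (shNTC) across genes, arrays of different KARPAS-422 arms at 0.95 to 0.955, and the Pfeiffer arms at 0.977; genes are not independent replicates. B cell markers were present in KARPAS-422, with 11 of 12 on the array and all 11 passing the filter on low values. That filter needs only 2 arrays, so passing it does not show signal in Pfeiffer. MS4A1, which encodes CD20, lay between 13.78 and 14.13 on the shEZH2 arrays and between 13.62 and 13.91 on the shNTC arrays. EBF1, a transcription factor that defines the B lineage, was between 12.70 and 12.94 in KARPAS-422, but 6.01 with shEZH2 and 6.02 with shNTC in Pfeiffer. BANK1 was also below the median of all values (6.21) in Pfeiffer, at 5.88 with shEZH2 and 5.57 with shNTC. The remaining B cell markers lay above it on both Pfeiffer arrays. The 3′ minus 5′ difference of the ACTB control probe sets, a sign of RNA quality, was 0.14 and 0.17 on the KARPAS-422 shEZH2 arrays, against 0.06 and 0.08 on the shNTC arrays, and its part in the results was not tested. In KARPAS-422, limma called 3305 of 13036 genes (25.4%), with 13.1% of all genes higher and 12.3% lower. It called 1076 without shEZH2 replicate 1, 963 without shEZH2 replicate 2 and 720 without the intensity trend in its variance. The labels do not say whether replicates came from separate infections, so p-values measure the spread between these arrays.

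All 8 genes were higher on both KARPAS-422 shEZH2 arrays than on both shNTC arrays, by 3.75 to 6.94 log2 units on the probe set that stands for each gene. The choice of the genes used this contrast, so these values are a description and carry no test. Non-overlapping arrays in this direction were found for 31.8% of all genes, a difference of at least 1 log2 unit for 7.12% and one of at least 3 for 0.637%. The median difference of the 8 genes was 4.79, and that of all genes tested was -0.02. By size of the difference, TMEM255A ranked 2 and CALD1 ranked 39 among all genes. The list has no fixed lower limit, and genes that were not chosen lie between its members in that order, among them IFNB1 at rank 3 and DHX58 at rank 38.

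**Figure D1:**
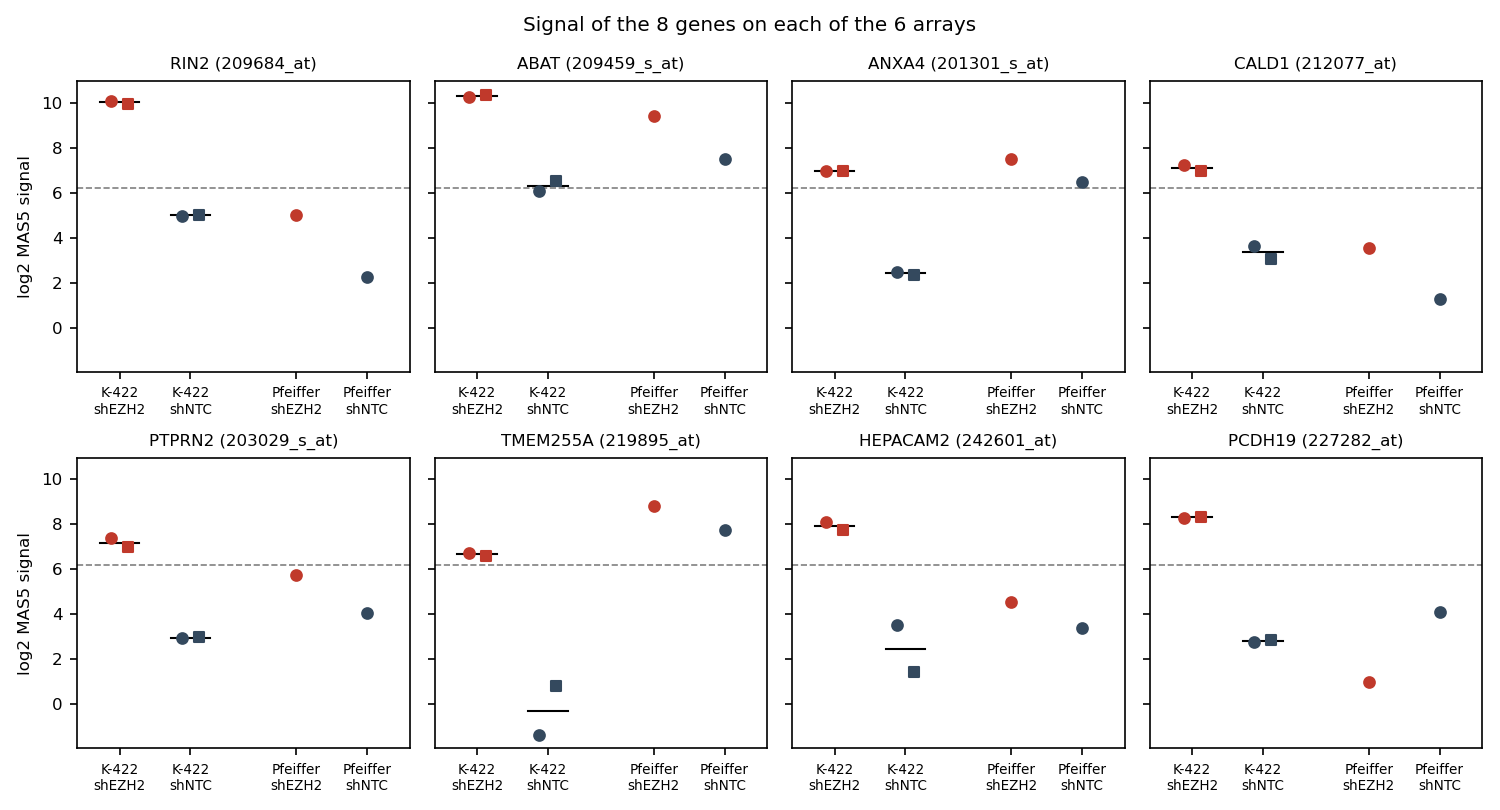
Log2 MAS5 signal (y axis) of each of the 8 genes on the 6 arrays, shEZH2 in red and shNTC in blue; circles are replicate 1 or the only array, squares replicate 2, short lines the KARPAS-422 arm means, and the dashed line the median of all deposited values (6.21). Both KARPAS-422 shEZH2 points lie above both shNTC points in all 8 panels, and in Pfeiffer only PCDH19 is lower with shEZH2.

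Among the genes of vesicle traffic and secretion, RIN2 had a large gap between the arms. RIN2 read 10.10 and 9.95 on the KARPAS-422 shEZH2 arrays, against 4.99 and 5.0 on the shNTC arrays. The difference was 5.03, and the replicates of each arm lay within 0.15 of each other. PTPRN2 read 7.37 and 6.99 on the shEZH2 arrays, against 2.96 and 2.97 on the shNTC arrays, a difference of 4.22. For both genes the 2 control arrays gave nearly the same dim value and the 2 knockdown arrays stood well clear of it. RIN2 lies on chromosome 20 at 19757599 to 20002456 and PTPRN2 on chromosome 7 at 157539056 to 158587823 (GRCh38.p14).

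ABAT, the GABA transaminase, had signal near the median of all values on the KARPAS-422 control arrays. It read 10.27 and 10.36 on the shEZH2 arrays, against 6.09 and 6.54 on the shNTC arrays, a difference of 3.99. One of its control arrays lay above and the other below the median of all deposited values (6.21), and the Pfeiffer control array lay above it, so ABAT did not depend on the shEZH2 arrays to pass the filter on low values. ABAT lies on chromosome 16 at 8674617 to 8784570.

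The annexin and the actin-binding protein had KARPAS-422 control signals well below the median of all values. ANXA4 read 6.96 and 6.97 with shEZH2, against 2.48 and 2.36 with shNTC, a difference of 4.54. CALD1 read 7.24 and 6.96 with shEZH2, against 3.64 and 3.06 with shNTC, a difference of 3.75. In both, replicates of an arm differed by far less than the arms did. ANXA4 lies on chromosome 2 at 69643808 to 69827112 and CALD1 on chromosome 7 at 134711499 to 134970729.

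The 3 remaining genes encode membrane proteins and were each read by 1 probe set. PCDH19 read 8.28 and 8.32 on the KARPAS-422 shEZH2 arrays, against 2.77 and 2.87 on the shNTC arrays, a difference of 5.48. Its 2 control arrays lay within 0.10 of each other. HEPACAM2 read 8.09 and 7.75 with shEZH2, against 3.52 and 1.42 with shNTC, a difference of 5.45. TMEM255A read 6.73 and 6.60 with shEZH2, against -1.37 and 0.81 with shNTC, a difference of 6.94. The knockdown arrays of these genes were close to each other, while the control arrays of HEPACAM2 and TMEM255A lay 2.10 and 2.18 apart. Leaving out 1 array in turn gave 4.40 to 6.497 for HEPACAM2 and 5.85 to 8.03 for TMEM255A, against 5.43 to 5.53 for PCDH19. PCDH19 and TMEM255A are both on the X chromosome, at 100291644 to 100410273 and at 120251433 to 120311461, and HEPACAM2 is on chromosome 7 at 93188534 to 93232285.

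The size of these differences depends on how dim control signals are treated, because MAS5 spreads dim values widely on the log scale. Among all probe sets whose KARPAS-422 mean was below 4, the 2 shNTC arrays differed by a median of 0.74, and by 2.93 or more for the upper 5%. Between 6 and 8 the median gap was 0.29. With 19 added to each linear signal before taking log2, the KARPAS-422 difference was 4.38 for RIN2, 3.71 for ABAT and 3.68 for PCDH19. It was 3.35 for HEPACAM2, 2.62 for PTPRN2, 2.59 for TMEM255A, 2.56 for ANXA4 and 2.41 for CALD1. All 8 genes stayed at least 1 log2 unit higher, a size reached by 5.17% of all genes on that scale. The order changed: RIN2 then had the largest difference of the 8 and TMEM255A, the largest as deposited, was the sixth. As fold changes on the log2(signal + 19) scale, which understates the change of dim genes, RIN2 was 20.9-fold, ABAT 13.04-fold and CALD1 5.33-fold higher.

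The other probe sets of the same genes did not all follow. Of the 24 probe sets, 19 had both KARPAS-422 shEZH2 arrays above both shNTC arrays, which held for 27.5% of all single-gene probe sets. At least 1 log2 unit higher were 18 of 24, and 17 of 24 with 19 added, against 9.9% and 4.02% of all probe sets. The second RIN2 probe set read 6.49 and 6.43 with shEZH2, against 3.53 and 4.63 with shNTC. The second ANXA4 probe set read 6.69 and 6.0 with shEZH2, against 2.72 and 4.24 with shNTC. For these 2 genes both probe sets separated the arms, by 2.39 for RIN2 and 2.87 for ANXA4 on the second one.

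ABAT was read by 3 probe sets whose differences spanned 0.69 to 6.11. On the one with the largest difference it read 9.68 and 9.31 with shEZH2, against 3.38 and 3.37 with shNTC. On the one with the smallest it read 8.26 and 7.53 with shEZH2, against 7.23 and 7.18 with shNTC. The arms did not overlap on any of the 3, but on the last one the gap between the arms (0.30) was smaller than that between the 2 shEZH2 arrays (0.73).

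PTPRN2 had 3 probe sets, of which 2 were higher with shEZH2. On the second of these the levels were 6.61 and 4.46 with shEZH2, against 2.38 and 2.63 with shNTC, so the knockdown arrays were 2.14 apart. On the third, which has the suffix _x_at, they were 6.08 and 5.91 with shEZH2, against 6.13 and 6.26 with shNTC, a difference of -0.20. That suffix marks probe sets whose probes may also bind other transcripts. When the arrays were scaled by quantiles, by medians or by cyclic loess, the _x_at probe set passed the filter and stood for the gene, and the PTPRN2 difference was then between -0.26 and -0.23.

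CALD1 was the least uniform, with 11 probe sets and differences from -0.08 to 5.04. The arms did not overlap on 7 of the 11 and overlapped on the other 4. Only the one described above passed the filter on low values. On the one with the largest difference the levels were 5.24 and 5.49 with shEZH2, against -0.75 and 1.40 with shNTC. On another they were 5.14 and 4.97 with shEZH2, against 0.37 and 0.76 with shNTC. On an _x_at probe set with overlapping arms they were 4.77 and 5.86 with shEZH2, against 4.35 and 6.44 with shNTC. The last of these had the highest mean of the 11 without the filter, and standing for the gene it would give -0.08 in place of 3.75. With 19 added, 6 of the 11 were at least 1 log2 unit higher, at most by 2.41.

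**Figure D2:**
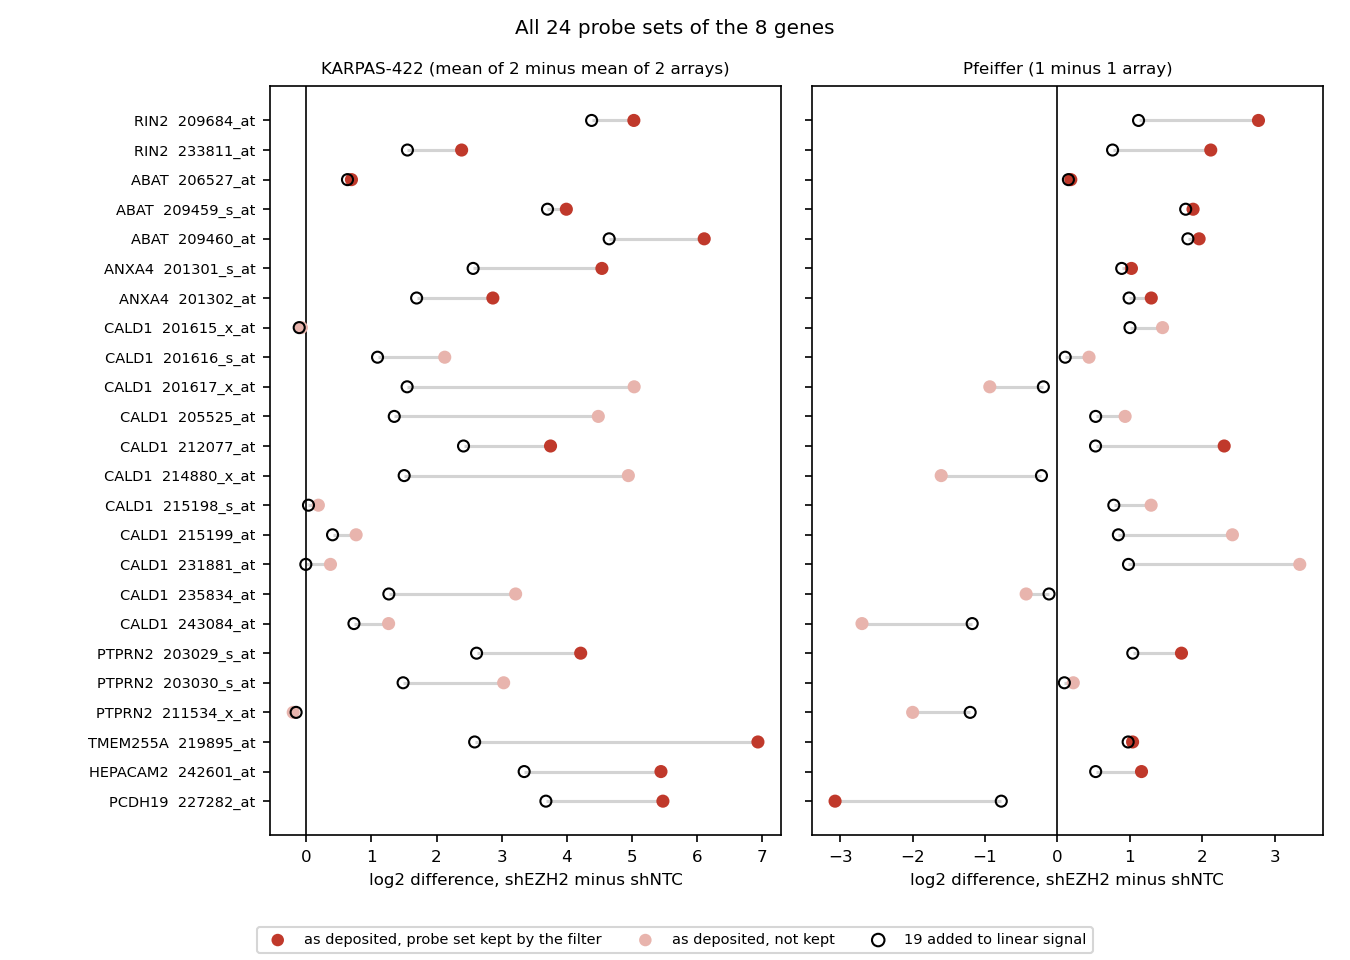
Log2 difference, shEZH2 minus shNTC (x axis), of all 24 probe sets in KARPAS-422 (left, 2 arrays per arm) and Pfeiffer (right, 1 per arm); filled points are deposited values, dark where the probe set passed the filter, and open circles have 19 added to the linear signal. In KARPAS-422, 22 probe sets lie above 0 as deposited and 2 below, and in Pfeiffer 18 lie above and 6 below.

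The genes were picked for their rise in KARPAS-422, but with earlier results of these data known, so Pfeiffer is not an independent check. The probe set that stands for each gene was also picked by its mean over all arrays, Pfeiffer included. Pfeiffer has 1 array per arm and so no test. On the same probe sets, 7 of the 8 genes were at least 1 log2 unit higher with shEZH2, a size seen in 3.23% of all genes tested. Any higher value was seen in 54.6% of all genes. The median difference of the 8 genes was 1.44, against 0.03 over all genes. Many of these Pfeiffer signals were dim, and among genes whose Pfeiffer mean lay below 6.21 the share at least 1 log2 unit higher was 20.2%. With 19 added to the linear signals, 3 of 8 reached 1 log2 unit, against 2.02% of all genes. After quantile normalization 3 of 8 reached it, and 4 of 8 with the probe sets kept as reported, where TMEM255A (0.9998), HEPACAM2 (0.987) and ANXA4 (0.944) lay just under the cut. With the probe sets as reported, 5 of 8 reached it after median centring and 5 of 8 after cyclic loess. The share of all genes past the cut was not computed for these scalings.

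ABAT had the clearest difference in Pfeiffer at a well measured level. It read 9.39 with shEZH2 and 7.52 with shNTC, a difference of 1.87 that was 1.77 with 19 added. Its probe set with the largest KARPAS-422 difference gave 8.86 with shEZH2 and 6.90 with shNTC, and that with the smallest gave 6.56 with shEZH2 and 6.37 with shNTC. The ABAT probe set that differed least in KARPAS-422 thus differed least in Pfeiffer.

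TMEM255A and ANXA4 were also measured above the median of all values in Pfeiffer. TMEM255A read 8.79 with shEZH2 and 7.75 with shNTC, a difference of 1.04 that was 0.98 with 19 added. ANXA4 read 7.51 with shEZH2 and 6.48 with shNTC, a difference of 1.02 that was 0.89 with 19 added. The second ANXA4 probe set gave 6.61 with shEZH2 and 5.32 with shNTC. On the log scale these differences are small beside those in KARPAS-422, where the control signals were dim. In linear signal TMEM255A went from 215.6 to 443.0 in Pfeiffer, and from 0.388 and 1.759 to 106.0 and 97.0 in KARPAS-422. ANXA4 went from 89.5 to 181.9 in Pfeiffer, and from 5.60 and 5.14 to 124.5 and 125.3 in KARPAS-422. Both genes already had signal on the Pfeiffer control array.

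The other Pfeiffer signals were dim in both arms. RIN2 read 5.03 with shEZH2 and 2.25 with shNTC, PTPRN2 5.75 with shEZH2 and 4.04 with shNTC. CALD1 read 3.56 with shEZH2 and 1.26 with shNTC, HEPACAM2 4.57 with shEZH2 and 3.40 with shNTC. All 4 were higher with shEZH2 but below the median of all values in both arms. With 19 added, the differences were 1.12 for RIN2, 1.04 for PTPRN2, 0.53 for CALD1 and 0.53 for HEPACAM2. The other PTPRN2 probe sets gave Pfeiffer differences of 0.22 and -2.0, and with the _x_at one standing for the gene, as under other scalings, PTPRN2 was lower with shEZH2. The 11 CALD1 probe sets pointed both ways in Pfeiffer, with 7 higher and 4 lower, from -2.70 to 3.35.

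PCDH19 was the exception in direction. It read 1.01 with shEZH2 and 4.08 with shNTC in Pfeiffer, a difference of -3.07, while in KARPAS-422 it differed by 5.48. Both Pfeiffer values were dim, and the difference was -0.77 with 19 added. A decrease of at least 1 log2 unit was seen in 1.48% of all genes in Pfeiffer, and in 0.767% with 19 added, where PCDH19 did not reach that size. These shares are over genes of all levels, and the share among dim genes was not computed. For the upper 5% of probe sets with a KARPAS-422 mean below 4, replicates differed by 2.97 or more (shEZH2) and 2.93 or more (shNTC). Pfeiffer has no replicate to show its own spread. The difference between the lines was not tested for the 8 genes, because it contains the contrast by which they were chosen.

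**Figure D3:**
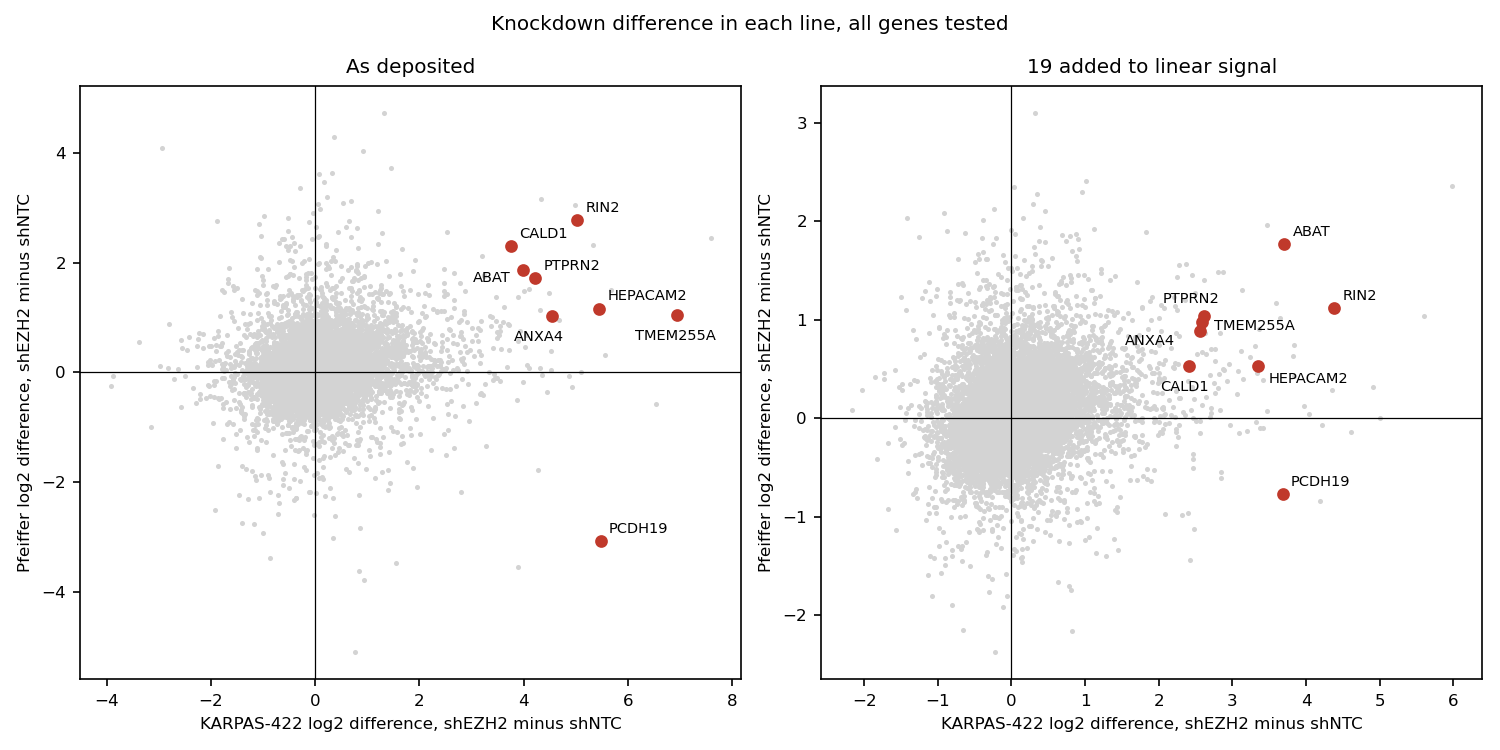
Log2 difference, shEZH2 minus shNTC, in KARPAS-422 (x axis) and in Pfeiffer (y axis) for the 13036 genes tested (grey) and the 8 genes (red), as deposited (left) and with 19 added to the linear signal (right). As deposited, 7 of the 8 genes lie above 1 on the Pfeiffer axis and PCDH19 at -3.07; with 19 added, ABAT, RIN2 and PTPRN2 lie above 1 and PCDH19 at -0.77.

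The control levels of the 2 lines put the 8 genes into different patterns. TMEM255A read 7.75 on the Pfeiffer shNTC array, against -1.37 and 0.81 for KARPAS-422 shNTC, and its Pfeiffer control also exceeded both KARPAS-422 shEZH2 arrays. ANXA4 read 6.48 in Pfeiffer shNTC, against 2.48 and 2.36 in KARPAS-422 shNTC, a gap of 4.06 that exceeds the gap between KARPAS-422 replicates. With 19 added that gap was 2.15. The second ANXA4 probe set read 5.32 in Pfeiffer shNTC, below the median of all values. Its gap was 1.84, beside 1.53 between the KARPAS-422 shNTC arrays. ABAT was 1.20 higher in Pfeiffer shNTC than in the mean of KARPAS-422 shNTC. On the probe set that stands for each gene, these 3 thus had signal above the median of all values in a lymphoma line without knockdown. That goes against calling TMEM255A and ABAT non-lymphoid, and ANXA4 on that probe set only. The Pfeiffer arrays also had dim EBF1 and bright EPCAM and PDGFRA, and the part of this in the Pfeiffer levels was not tested.

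RIN2 and CALD1 were lower in Pfeiffer shNTC than in KARPAS-422 shNTC, by -2.74 and -2.09. With 19 added these were -1.10 and -0.45. RIN2 in Pfeiffer shEZH2 reached 5.03, beside 4.99 and 5.0 in KARPAS-422 shNTC, a difference within the replicate gap of dim probe sets. PTPRN2, HEPACAM2 and PCDH19 were 1.07, 0.93 and 1.26 higher in Pfeiffer shNTC than in KARPAS-422 shNTC. These 3 gaps and that of CALD1 are smaller than the 2.37 or more by which the upper 5% of probe sets with a KARPAS-422 mean between 4 and 6, as these have, differed between the shNTC replicates. The lines also differ in the number of arrays, and a batch could not be tested with the labels given.

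In order of level, RIN2, CALD1, HEPACAM2, PTPRN2 and PCDH19 were highest in KARPAS-422 shEZH2 and below the median of all values in the other 3 groups. Those 5 genes passed the filter on low values only through shEZH2 arrays and had to differ for that reason alone. Of the control arrays of TMEM255A and ANXA4, only Pfeiffer shNTC lay above the median, so these genes also needed a shEZH2 array to pass. ABAT was highest in KARPAS-422 shEZH2, followed by Pfeiffer shEZH2, Pfeiffer shNTC and KARPAS-422 shNTC. TMEM255A and ANXA4 were highest in Pfeiffer shEZH2 and lowest in KARPAS-422 shNTC. For ANXA4, the middle groups did not differ much, at 6.96 and 6.97 in KARPAS-422 shEZH2 and 6.48 in Pfeiffer shNTC.

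Genes with the most similar profile were picked by Pearson's r of log2(signal + 19) over the 6 arrays, as a description. The 6 arrays fall into 4 groups, and between 115 and 322 genes had r above 0.95 with a given member. The most alike gene for CALD1 was IFI35 (r = 0.998), an interferon-induced gene, and for PCDH19 it was SAMHD1 (r = 0.997), a nucleotide hydrolase that restricts viruses. For TMEM255A it was GSAP (r = 0.997), a regulator of gamma-secretase, for PTPRN2 the protease gene CTSO (r = 0.997) and for ABAT LMBR1L (r = 0.997). For RIN2 it was the growth factor gene PGF (r = 0.999), although PGF differed by only 0.28 between the KARPAS-422 arms. HEPACAM2 was most like the noncoding gene GABPB1-AS1 (r = 0.999) and ANXA4 most like ANKRD20A11P (r = 0.996). Among the 8 genes themselves RIN2 and CALD1 were most alike (r = 0.997), while RIN2 and TMEM255A were not alike (r = 0.0844).

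Relatives of the 8 genes in the same families and pathways were tested in KARPAS-422. Of 100 related genes, 89 were on the array and 61 passed the filter. With limma, 5 rose and 4 fell, which is 8.2% and 6.56% of those tested, beside 13.1% and 12.3% of all genes. The median difference of the 61 was -0.04, and that of all genes was -0.02. The count of 9 of 61, beside 25.4% of all genes, was 2 without shEZH2 replicate 1 (3.28%, beside 8.25% of all genes) and 3 without shEZH2 replicate 2 (4.92%, beside 7.39%). It was 6 without shNTC replicate 1 (9.84%, beside 19.5%), 13 without shNTC replicate 2 (21.3%, beside 21.2%) and 4 without the intensity trend (6.56%, beside 5.52%), so the lower share among relatives did not hold in every setting. Adjusted p-values are over all 13036 genes.

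Of the genes listed because CALD1 binds actin filaments, the smooth muscle actins ACTG2 and ACTA2 rose. ACTG2, the enteric smooth muscle actin, read 8.96 and 9.39 on the KARPAS-422 shEZH2 arrays, against 7.09 and 6.82 on the shNTC arrays (difference 2.22, SE 0.25, limma adjusted p = 0.00166). ACTA2, the vascular smooth muscle actin, read 8.42 and 8.55 with shEZH2, against 7.48 and 7.31 with shNTC (difference 1.09, SE 0.21, limma adjusted p = 0.0107). The arms did not overlap for either gene. Vinculin (VCL), which anchors actin to adhesions, fell by 0.45 (limma adjusted p = 0.0235), and transgelin-2 (TAGLN2) fell by 0.33 (limma adjusted p = 0.0255). Of 17 contractile and actin-binding genes tested 2 rose and 2 fell, 11.8% each, beside 13.1% and 12.3% of all genes. The actin genes have similar coding sequences, and whether their probe sets share signal was not tested. The ACTG2 call held without any 1 array, while ACTA2 lost its call without shEZH2 replicate 1 (limma adjusted p = 0.0749) or replicate 2 (0.0973). TAGLN2 lost it without any 1 of the 4 arrays (limma adjusted p = 0.0730 to 0.115), and VCL without shEZH2 replicate 1 (0.136), shEZH2 replicate 2 (0.0607) or shNTC replicate 1 (0.0985). VCL also lost it after quantile normalization (0.0641), after cyclic loess (0.0669) and without the intensity trend (0.126), and TAGLN2 after cyclic loess (0.0919) and without the trend (0.124). In the test of the difference between lines, which called 1.7% of all genes, 3 of the 61 related genes passed, VCL, AKR7A2 and ANXA6. That test has 1 Pfeiffer array per arm, takes its spread from the KARPAS-422 replicates and assumes that Pfeiffer varies like them. Without either shEZH2 array it called 0 genes, with 1771 to 1914 at an unadjusted p under 0.05.

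Among RAB5 and its activators and partners, 2 of 10 (20%) rose and none fell, beside 13.1% and 12.3% of all genes. The rabaptin gene RABEP2 read 9.74 and 9.72 with shEZH2, against 8.53 and 8.79 with shNTC (difference 1.07, SE 0.14, limma adjusted p = 0.00275). RAB5B, a GTPase of early endosomes, read 9.03 and 9.06 with shEZH2, against 8.23 and 8.58 with shNTC (difference 0.64, SE 0.17, limma adjusted p = 0.0319). Neither RIN1 nor RIN3, the relatives of RIN2, was called. RABEP2 gave 0.02 (limma adjusted p = 0.935) without _x_at and _s_at probe sets. RAB5B lost its call without shEZH2 replicate 1 (limma adjusted p = 0.142), shEZH2 replicate 2 (0.155) or shNTC replicate 1 (0.104). It also lost it after quantile normalization (0.0992), after cyclic loess (0.0691), with no filter (0.0561) and without the intensity trend (0.0920).

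Among the genes of GABA metabolism and the annexins, limma called 11.1% and 20% in KARPAS-422, beside 25.4% of all genes. Of 9 genes of GABA metabolism and transport tested, AKR7A2, which reduces the product of GABA breakdown, fell by 0.47 (SE 0.08, limma adjusted p = 0.00793) and no gene rose. GAD1, which makes GABA, read 6.15 and 6.03 with shEZH2, against 5.98 and 6.13 with shNTC (limma adjusted p = 0.943). Of 5 annexins tested besides ANXA4, ANXA7 fell by 0.37 (SE 0.08, limma adjusted p = 0.0172). AKR7A2 lost its call without either shEZH2 array (limma adjusted p = 0.0544 and 0.0557), and ANXA7 without shEZH2 replicate 1 (0.0734), shEZH2 replicate 2 (0.0856) or shNTC replicate 1 (0.0808). Without the intensity trend both lost it (0.0753 for AKR7A2 and 0.108 for ANXA7), and ANXA7 also after cyclic loess (0.0646), with the mean of its probe sets (0.0525) and without _x_at and _s_at probe sets (0.179). ANXA6, named after its values were seen, read 12.55 and 12.55 with shEZH2, against 12.79 and 12.92 with shNTC, in KARPAS-422 (difference -0.31, limma adjusted p = 0.0757). In Pfeiffer it read 7.08 with shEZH2 and 5.35 with shNTC.

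Of the neuroendocrine and adhesion relatives, most tested genes with immunoglobulin folds were dim in KARPAS-422. Most tested genes of regulated secretion lay above the median of all values there. Of 9 genes of dense-core vesicles and regulated secretion that passed the filter, limma called 0, also at an unadjusted p under 0.05, and CADPS2, a priming factor of such vesicles, differed by 0.70 (limma adjusted p = 0.206). Leaving out 1 array moved CADPS2 between 0.28 and 1.12, and it was called without shNTC replicate 2 (limma adjusted p = 0.0402). Of 8 adhesion genes with immunoglobulin folds, limma called only CXADR (12.5%, beside 25.4% of all genes). CXADR, the coxsackievirus and adenovirus receptor, read 6.11 and 5.65 with shEZH2, against 2.80 and 3.63 with shNTC (difference 2.66, SE 0.43, limma adjusted p = 0.00606). The Pfeiffer arrays read 8.79 with shEZH2 and 10.16 with shNTC for CXADR. Leaving out shEZH2 replicate 1 ended its KARPAS-422 call (limma adjusted p = 0.0637), as did averaging its kept probe sets (difference 1.09, limma adjusted p = 0.297). Of 3 other protocadherins that passed the filter, limma called 0, also at an unadjusted p under 0.05, and PCDH9 differed by 0.40 (limma adjusted p = 0.130). PCDH9 was called with the mean of its kept probe sets (difference 0.96, limma adjusted p = 0.0291) and without _x_at and _s_at probe sets (1.53, limma adjusted p = 0.0372). TMEM255B, the sister gene of TMEM255A, did not pass the filter.

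**Figure D4:**
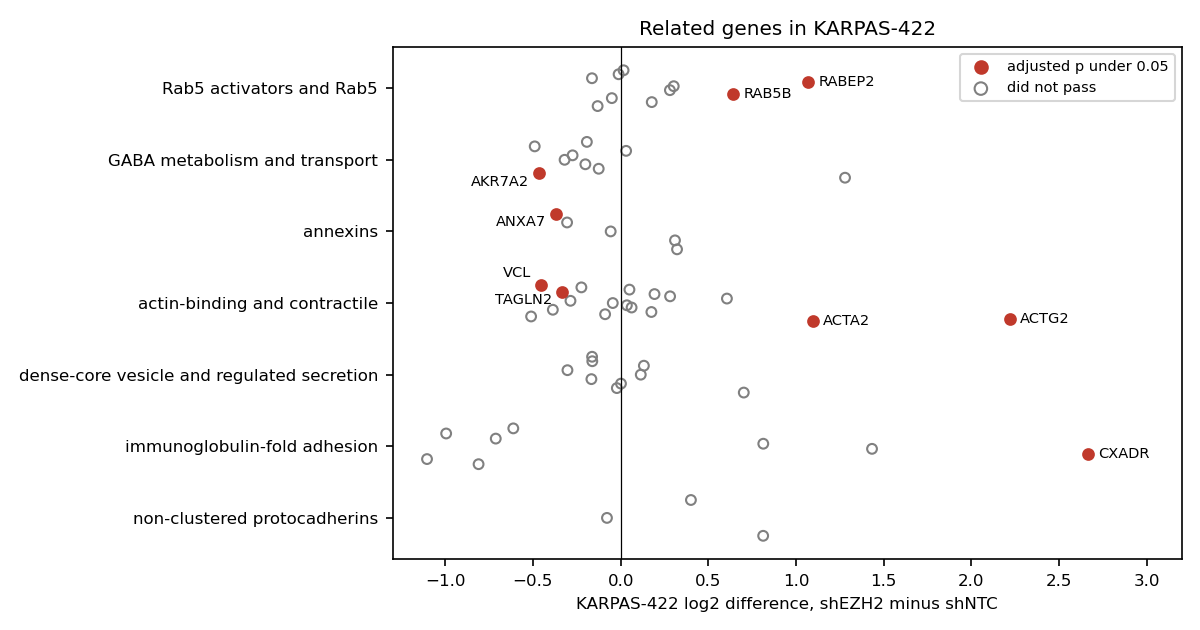
KARPAS-422 log2 difference, shEZH2 minus shNTC (x axis), of the 61 related genes tested, by family (rows); filled points passed limma at an adjusted p under 0.05 and open ones did not. The called genes are ACTG2, ACTA2, RABEP2, RAB5B and CXADR above 0, and AKR7A2, ANXA7, VCL and TAGLN2 below 0.

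Markers of the tissues in which the 8 genes are best known did not rise together in KARPAS-422. The summed linear signal of 15 fibroblast and smooth muscle markers was 13518 and 12158 with shEZH2, against 14299 and 13466 with shNTC. That sum is carried by DCN, at 13.59 and 13.43 with shEZH2 and 13.71 and 13.60 with shNTC. Of 9 such markers tested, ACTA2 rose and 0 fell by limma, with 1 at an unadjusted p under 0.05. Of 7 neuronal and neuroendocrine markers tested, the neurofilament gene INA rose by 0.84 (limma adjusted p = 0.0199) and the tubulin gene TUBB3 fell by 0.46 (limma adjusted p = 0.0130). The neuronal sum was 9778.5 and 8415.5 with shEZH2, against 11996 and 12086 with shNTC. It is carried by TUBB3, at 13.04 and 12.82 with shEZH2 and 13.40 and 13.39 with shNTC. MAP2 differed by 1.24 (limma adjusted p = 0.224). MAP2, INA, SYP, CHGA and STMN2 had both shEZH2 arrays above both shNTC arrays, and TUBB3, SNAP25 and NEFL had both below. The arms of the remaining neuronal markers overlapped. Arrays apart in the upward direction were found for 27.5% of all single-gene probe sets. The neuronal splicing factor gene RBFOX3 did not pass the filter, and neither did SYP, NEFL, CHGA or STMN2.

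Of 7 epithelial markers tested, limma called 0, with 2 at an unadjusted p under 0.05. The epithelial sum was 627 and 519 with shEZH2, against 708 and 671 with shNTC. KRT7 is its largest part, at 7.87 and 7.80 with shEZH2 and 8.52 and 8.30 with shNTC (limma adjusted p = 0.0530). EPCAM went the other way, at 5.64 and 4.90 with shEZH2 and 2.86 and 4.45 with shNTC (limma adjusted p = 0.0561). Of the tested markers, EPCAM, KRT18 and ELF3 had a higher mean with shEZH2, and KRT7, KRT8, CLDN7 and ESRP1 a lower one. The sum therefore does not show a common fall. Of 10 endothelial markers only ROBO4 passed the filter, at -0.46 (limma adjusted p = 0.397). Of 3 T and NK cell markers tested CD3D fell by 0.77 (limma adjusted p = 0.00943) and CD3G by 0.64 (limma adjusted p = 0.0417), and of 2 myeloid markers limma called 0, also at an unadjusted p under 0.05. Of the 11 B cell markers CD79B and BANK1 rose (18.2%) and VPREB3 fell (9.09%), beside 13.1% and 12.3% of all genes. In Pfeiffer some epithelial and stromal markers had signal in both arms, for example EPCAM at 12.98 with shEZH2 and 13.34 with shNTC, and PDGFRA at 11.66 with shEZH2 and 12.41 with shNTC. Bulk RNA cannot tell more cells with a transcript from more transcript per cell.

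The annotated start sites of the genes were compared by their CpG content, since Polycomb repressive complexes are known to favour CpG-rich promoters. The table of RefSeq start sites used here matched 6 of the 8 genes, with 14 starts, and the promoters of RIN2 and PTPRN2 were not analysed here. Taking the 250 bases before each start, 6 of 14 held CpG at 0.6 or more of the count expected from base composition with at least 50% G and C. That is 42.9%, against 45.0% of 35116 start sites of all genes. Starts of the same gene are not independent, since ABAT and CALD1 have 4 each and windows of ABAT overlap. With 6 genes, these shares cannot show whether the genes stand apart. By gene, ABAT, ANXA4 and PCDH19 had a start that met both limits and TMEM255A, HEPACAM2 and CALD1 did not. The 4 sequences below were chosen to show that range: ABAT and PCDH19 are CpG-rich, TMEM255A and CALD1 are not. They run 5′ to 3′ on the gene's strand, end at the base before the outermost annotated start, and carry CG dinucleotides in capitals (RefSeq, GRCh38.p14).
ABAT, chr16:8674367-8674616, plus strand: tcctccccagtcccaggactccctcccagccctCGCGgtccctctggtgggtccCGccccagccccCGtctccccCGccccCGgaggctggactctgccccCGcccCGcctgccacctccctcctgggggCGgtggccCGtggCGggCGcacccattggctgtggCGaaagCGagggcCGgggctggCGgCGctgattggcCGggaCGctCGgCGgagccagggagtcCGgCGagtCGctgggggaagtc
PCDH19, chrX:100410274-100410523, minus strand: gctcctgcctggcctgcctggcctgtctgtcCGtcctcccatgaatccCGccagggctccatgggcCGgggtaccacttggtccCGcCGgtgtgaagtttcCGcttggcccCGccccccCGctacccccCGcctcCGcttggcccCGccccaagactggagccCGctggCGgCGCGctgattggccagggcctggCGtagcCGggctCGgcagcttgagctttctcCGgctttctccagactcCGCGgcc
TMEM255A, chrX:120311462-120311711, minus strand: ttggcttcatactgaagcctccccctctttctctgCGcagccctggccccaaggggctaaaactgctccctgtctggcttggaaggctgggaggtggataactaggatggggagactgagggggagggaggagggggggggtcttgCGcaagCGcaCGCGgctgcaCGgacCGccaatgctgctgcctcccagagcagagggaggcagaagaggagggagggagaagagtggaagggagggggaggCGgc
CALD1, chr7:134711249-134711498, plus strand: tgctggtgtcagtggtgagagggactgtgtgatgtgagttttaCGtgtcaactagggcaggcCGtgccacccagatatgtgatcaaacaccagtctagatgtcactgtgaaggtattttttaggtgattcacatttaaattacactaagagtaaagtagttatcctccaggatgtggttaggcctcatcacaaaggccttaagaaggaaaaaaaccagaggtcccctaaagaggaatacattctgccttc
These windows hold 24 CpG in ABAT, 21 in PCDH19, 8 in TMEM255A and 2 in CALD1. The observed over expected ratio was 0.648, 0.667, 0.332 and 0.169 in the same order, and 0.989 at the outermost start of ANXA4. ABAT and PCDH19 have similar ratios. Whether CpG content bears on the response to the knockdown was not tested. The motif TATAAA, searched on both strands, was found before 1 of the 14 starts, an inner start of CALD1, and before 10.7% of all starts. The arrays do not show which start was used in these cells.

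**Figure D5:**
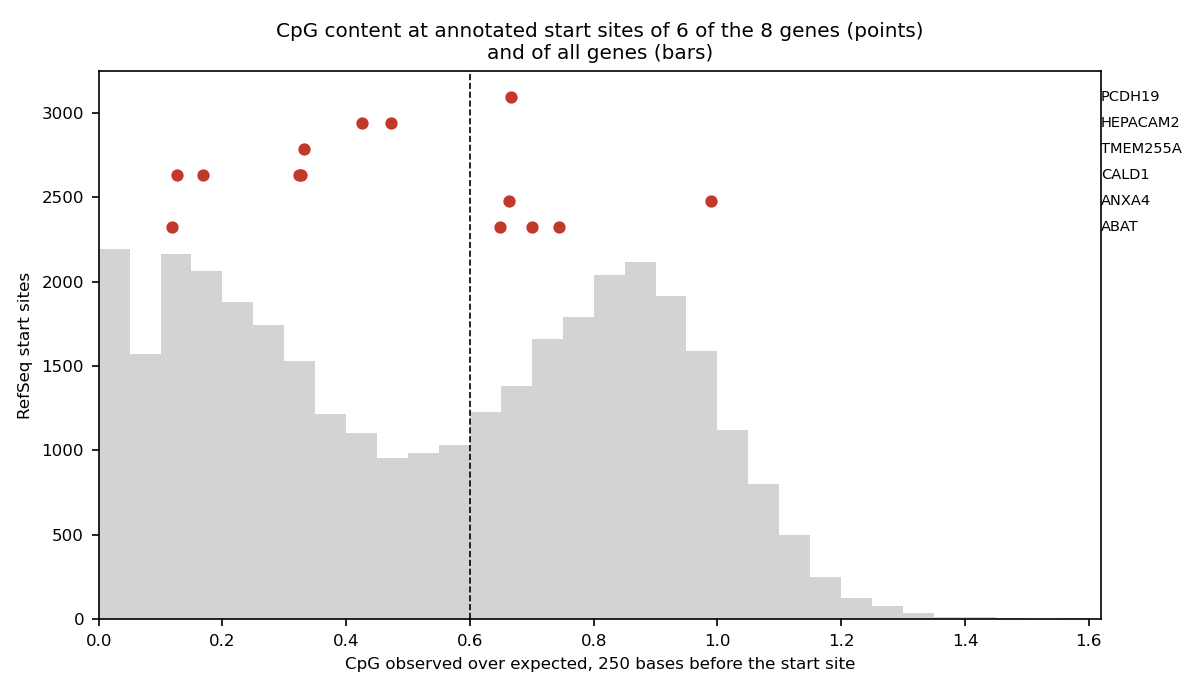
Number of RefSeq start sites (y axis, bars) by CpG observed over expected in the 250 bases before the start (x axis); each row of red points holds the start sites of 1 gene, placed above the bars with no height scale, and the dashed line marks 0.6. ABAT, ANXA4 and PCDH19 have points to the right of 0.6, while all points of CALD1, TMEM255A and HEPACAM2 lie to the left.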

How the data were processed

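RNA of 2 cell lines was hybridised to 6 arrays, 1 per sample, after extraction with Trizol and RNeasy columns, per the labels' protocols. The deposited values are log2 signals that the authors made with MAS5, per the submitters' processing notes, which give no version. The log base was not stated, but the 2% trimmed mean of 2 to the power of each value was 500.0 on every array, so each array was scaled on its own to a common target. Detection calls, scan dates and CEL files were not used here.

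Of 54675 probe sets, 41091 have 1 gene symbol in the platform annotation. The filter on low values needed 2 of 6 arrays above the median of all values (6.21), and the kept probe set with the highest mean stood for its gene, which left 13036 genes. A model of 4 groups over all 6 arrays, with 2 residual degrees of freedom, was fitted with limma 3.58.1 under R 4.3.3, by lmFit and by eBayes with an intensity trend. Its tests were two-sided, the p-values were Benjamini-Hochberg adjusted for the 13036 genes, and the threshold was 0.05. No pseudocount was used except where 19 or 76 is stated. The fit was tested on simulated data. The 8 genes, the related gene lists and the marker lists were chosen with earlier results of these data known. Named genes are the 8 genes, EZH2, up to 3 called genes per direction of each related list or else that with the smallest p, and the gene most alike to each of the 8. RIN1, RIN3, GAD1 and TMEM255B, the genes named for rank and the marker genes were named outside that rule, after their values were seen. Proteins were not analysed here. Alternatives changed the added value, normalization, choice of probe set, filter, trend, replicate block and arrays. The number of arrays limits the precision.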

Additional observations from a re-analysis of the deposited data

Results flagged for a closer look

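The response of PCDH19 went opposite ways in the lines. All KARPAS-422 shEZH2 arrays lay above all shNTC arrays, while Pfeiffer shEZH2 lay below Pfeiffer shNTC, with a difference of -3.07. This difference between the lines was not tested, and both Pfeiffer values were dim.

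Of 61 related genes, 3 passed limma's test of the difference between lines. Pfeiffer has 1 array per arm there, so the spread is that of the KARPAS-422 replicates and Pfeiffer is assumed to vary like them. For ANXA6 the KARPAS-422 difference minus the Pfeiffer difference was -2.04 (SE 0.19, limma adjusted p = 0.00444), but 0.08 (limma adjusted p = 0.959) without _x_at and _s_at probe sets and -0.98 (limma adjusted p = 0.161) with the mean of its probe sets. For VCL the KARPAS-422 difference minus the Pfeiffer difference was -1.37 (SE 0.19, limma adjusted p = 0.0189), with 11.87 and 12.07 with shEZH2 and 12.52 and 12.33 with shNTC in KARPAS-422, and 11.86 with shEZH2 and 10.94 with shNTC in Pfeiffer, and it lost its call with the mean of its probe sets (limma adjusted p = 0.0609). For AKR7A2 it was -0.81 (SE 0.14, limma adjusted p = 0.0431), with a Pfeiffer difference of 0.34, and the call was lost after quantile normalization (0.0550), centring (0.0610) and cyclic loess (0.0538), with the mean of probe sets (0.0744), with no filter (0.0764) and without either shNTC array (0.0574 and 0.0531). Without the intensity trend none of the 3 passed (0.104 to 0.233). Over all genes this test called 1.7%, and without either KARPAS-422 shEZH2 array it called 0 genes, with 1771 to 1914 at an unadjusted p under 0.05.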

How the results depend on the processing

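All 8 genes stayed at least 1 log2 unit higher in KARPAS-422 without any 1 array and with 19 or 76 added. Their median difference there was 4.44 to 4.82 without 1 array, 2.98 and 1.67 with 19 and 76 added, 3.98 with the mean of the kept probe sets, and 5.03 without _x_at and _s_at probe sets, where PTPRN2 has none left, ABAT is 0.69 (0.19 in Pfeiffer) and 6 of 7 reach 1 log2 unit. In Pfeiffer the median was 0.93 and 0.46 with 19 and 76 added, 0.99 after quantile normalization, 0.98 after median centring, 0.97 after cyclic loess, 1.16 without _x_at and _s_at probe sets and 1.10 with no filter. With 19 and 76 added, 3 and 1 of the 8 were at least 1 log2 unit higher in Pfeiffer and 0 were lower by as much. After quantile normalization, centring and cyclic loess, 3, 4 and 4 were higher and 2 lower each, and with no filter 2 were lower. With the probe sets as reported, an alternative added after seeing the data, 4 were higher after quantile normalization, 5 after centring and 5 after cyclic loess. PTPRN2 changed sign where its _x_at probe set stood for it: its KARPAS-422 difference was -0.26 after quantile normalization and after centring, -0.23 after cyclic loess and -0.20 with no filter, and its Pfeiffer difference -2.18, -2.12, -2.12 and -1.999. CALD1 was -0.0776 in KARPAS-422 with no filter. The median Pfeiffer minus KARPAS-422 difference of the shNTC arrays, 1.14, was 0.43 and 0.15 with 19 and 76 added, 0.88 after quantile normalization and 0.87 after centring.

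Without 1 KARPAS-422 array, limma called 963 to 2762 genes (539 to 1649 higher, 418 to 1113 lower), 2 to 13 related genes (2 to 9 higher, 0 to 4 lower, with 5 to 7 lower at an unadjusted p under 0.05), and 0 to 473 genes for the difference between lines. EZH2 stayed between -1.18 and -1.04. These fits have 1 residual degree of freedom and assume that the lone array varies like the rest. Without the intensity trend 720 genes were called (586 higher, 134 lower), 4 related genes, of which 0 lower with 5 lower at an unadjusted p under 0.05, and 1 gene for the difference between lines. Related genes that fell numbered 1 after cyclic loess and 2 without _x_at and _s_at probe sets, where 901 genes fell in all. With no filter 114 genes differed between lines. The share of called genes that were higher was 51.5%; it was 42.7% after centring, 60.2% without _x_at and _s_at probe sets and 81.4% without the intensity trend.

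KARPAS-422 replicates share only a number: deviations of same-numbered arrays correlated at 0.01. With that number as a replicate block 3626 genes were called, 10 related genes, and 378 genes for the difference between lines; EZH2 was -1.11.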
